A study of Mus musculus with 12 samples.

Results

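The alpha-class glutathione S-transferases were examined as the 5 rows Gsta1, Gsta2, Gsta3, Gsta4 and Gm3776 of the 24062 genes in the deposited liver count tables. The rows were found by gene name, with no threshold on expression. Liver RNA had been sequenced from 12 female C57BL/6J mice, a wild-type inbred strain, which arrived at 6 weeks of age and were acclimated before the experiment. All 12 had been moved from chow to the purified control diet ahead of the start. Of these mice, 6 stayed on the control diet and 6 received the matched diet with BIBB-515 for 10 days, at a dose of 55 mg/kg. BIBB-515 inhibits lanosterol synthase, an enzyme of cholesterol synthesis. The reads counted on genes came to 22764819 in the shallowest library and 31058370 in the deepest, and the comparison asks how these enzymes of detoxification differed in liver RNA between the diets.

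Glutathione S-transferases join the tripeptide glutathione to reactive, mostly fat-loving molecules, which the cell can then export. The alpha class is a family of such enzymes in the cytosol that is abundant in liver cells, where its genes are known to answer to foreign compounds through receptors such as PXR and CAR, through the aryl hydrocarbon receptor and through the stress regulator NRF2. Its members also act as glutathione peroxidases on lipid hydroperoxides, and Gsta4 is known for its high activity towards 4-hydroxynonenal, a toxic product of lipid peroxidation. Gsta3 is the major alpha-class enzyme of the unstressed mouse liver and is known for its activity towards aflatoxin epoxide. Gsta1 and Gsta2 are the inducible liver forms, and Gm3776 is a predicted gene next to them.

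Gsta3 lies alone on chromosome 1, at 21240585 to 21265575 on the plus strand of build mm10. The other 4 members lie within 155 kb of chromosome 9. In order along the chromosome these are Gsta4 (78191966 to 78209349), Gsta1 (78230669 to 78242683), Gm3776 (78257129 to 78269166) and Gsta2 (78331020 to 78347145). Gsta2 is on the minus strand and the others are on the plus strand. A further predicted gene of the same family, Gm10639 (78289928 to 78305525, plus strand), sits between Gm3776 and Gsta2. It is not a member, but its sequence bears on theirs and its reads are given with them.

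Gsta1, Gm3776, Gsta2 and Gm10639 are near copies of each other. The coding sequences of Gsta1 and Gm3776 differed at 2 of 669 aligned bases, those of Gsta1 and Gsta2 at 13 of 666, and those of Gsta2 and Gm10639 at 10 of 666. Gsta3 was 75.3% identical to Gsta1 over the aligned coding bases, and Gsta4 was 67.3% identical to it. The sequence of exon 3 is shown because it is the same in all 4 copies. It is given for Gsta1 at chr9:78235084-78235135 on the plus strand of GRCm38, the assembly that mm10 names, from the GENCODE transcripts:
Gsta1 exon 3: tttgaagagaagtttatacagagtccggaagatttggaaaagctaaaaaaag

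The last exon is where most reads of Gsta1 and Gm3776 were counted, and its opening 120 coding bases show how few letters separate the copies. The 7 positions at which any of the 4 differ are in capitals. Gm3776 differed from Gsta1 at 1 of these positions, Gsta2 at 5 and Gm10639 at 6. The stretches are chr9:78242453-78242572 for Gsta1, chr9:78268936-78269055 for Gm3776 and chr9:78305295-78305414 for Gm10639, all on the plus strand, and chr9:78331130-78331249 on the minus strand for Gsta2:
Gsta1 exon 7: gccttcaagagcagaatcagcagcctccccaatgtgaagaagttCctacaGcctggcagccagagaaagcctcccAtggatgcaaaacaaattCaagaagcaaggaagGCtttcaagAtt
Gm3776 exon 7: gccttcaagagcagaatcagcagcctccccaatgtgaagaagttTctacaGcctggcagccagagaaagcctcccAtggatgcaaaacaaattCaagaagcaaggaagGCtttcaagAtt
Gsta2 exon 7: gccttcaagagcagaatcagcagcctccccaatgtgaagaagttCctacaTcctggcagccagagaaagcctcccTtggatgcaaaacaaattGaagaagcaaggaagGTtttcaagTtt
Gm10639 exon 7: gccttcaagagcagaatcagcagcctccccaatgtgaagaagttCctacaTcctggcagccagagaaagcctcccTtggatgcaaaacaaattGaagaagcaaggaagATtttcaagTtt

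The copies also resemble each other ahead of their annotated starts. RefSeq windows on GRCm38 of 180 bases before the start and 20 after it are shown because the copies rose together with BIBB-515, with GCGTG, the core letters of the aryl hydrocarbon receptor element, in capitals. Gsta1 and Gm3776 had 1 difference over 187 aligned bases of these windows, Gm3776 and Gm10639 had 3 over 198, and Gsta1 and Gsta2 had 31 over 194. The windows are chr9:78230489-78230688 for Gsta1, chr9:78256949-78257148 for Gm3776 and chr9:78289748-78289947 for Gm10639 on the plus strand, and chr9:78347126-78347325 for Gsta2 on the minus strand:
Gsta1 start: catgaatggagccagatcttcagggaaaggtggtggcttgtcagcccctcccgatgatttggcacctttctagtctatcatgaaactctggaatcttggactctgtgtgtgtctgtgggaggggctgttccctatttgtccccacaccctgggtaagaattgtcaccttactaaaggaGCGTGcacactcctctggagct
Gm3776 start: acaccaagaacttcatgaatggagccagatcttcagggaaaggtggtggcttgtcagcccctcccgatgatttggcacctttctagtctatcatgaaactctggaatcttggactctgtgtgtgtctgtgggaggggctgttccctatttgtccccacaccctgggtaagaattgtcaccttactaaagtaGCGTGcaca
Gsta2 start: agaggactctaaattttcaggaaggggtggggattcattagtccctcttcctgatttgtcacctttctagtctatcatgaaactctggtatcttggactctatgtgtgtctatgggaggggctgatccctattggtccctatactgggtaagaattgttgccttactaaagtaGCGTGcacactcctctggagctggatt
Gm10639 start: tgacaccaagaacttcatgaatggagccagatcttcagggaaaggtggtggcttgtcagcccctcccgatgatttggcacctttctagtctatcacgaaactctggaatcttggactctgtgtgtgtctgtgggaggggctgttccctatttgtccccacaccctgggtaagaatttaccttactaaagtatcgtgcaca

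On either strand of the full 300-base RefSeq windows, GCGTG occurred once each in Gsta1, Gm3776 and Gsta2, and in neither Gsta3 nor Gm10639. It occurred in 32.4% of the 32851 promoter windows of the same length. Counted from the annotated start, its first base lay at -2 in Gsta1, -7 in Gsta2 and 12 in Gm3776. The core of the antioxidant response element, TGACNNNGC, was found in Gsta3 alone of the 5 genes with a window, against 12.4% of all windows. The windows reach only 250 bases upstream of the start. Sequence further upstream was not searched, so elements of either kind there would have been missed. The letter matches were searched on both strands and do not overlap each other in these windows. Gsta4 had no window and was not searched.

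All 5 members passed the filter on low counts. It kept genes with at least 1 CPM (counts scaled by library size) in at least 2 of the 12 mice. Gsta1 and Gm3776 passed it through the BIBB-515 mice alone, as their highest control values were 0.398 and 0.131 CPM. Whether these genes were tested thus depended on their level with BIBB-515. With no filter their log2 fold changes were 6.38 and 6.23 (adjusted p = 3.16e-11 and 5.18e-08, edgeR's quasi-likelihood test). All 5 members rose with BIBB-515. In edgeR's quasi-likelihood test 7.18% of the 12481 genes tested were higher with BIBB-515 at an adjusted p under 0.05, 6.48% were lower and 13.7% were called in either direction. In all 5 members every BIBB-515 mouse lay above every control mouse, which held for 4.35% of the genes tested. The median log2 fold change was 3.44 over the members and -0.01 over all genes tested. Gsta1 and Gm3776 had the highest and the next highest log2 fold change of the 12481 genes in this fit, Gsta2 ranked 10, Gsta4 ranked 110 and Gsta3 ranked 336.

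**Figure D1:**
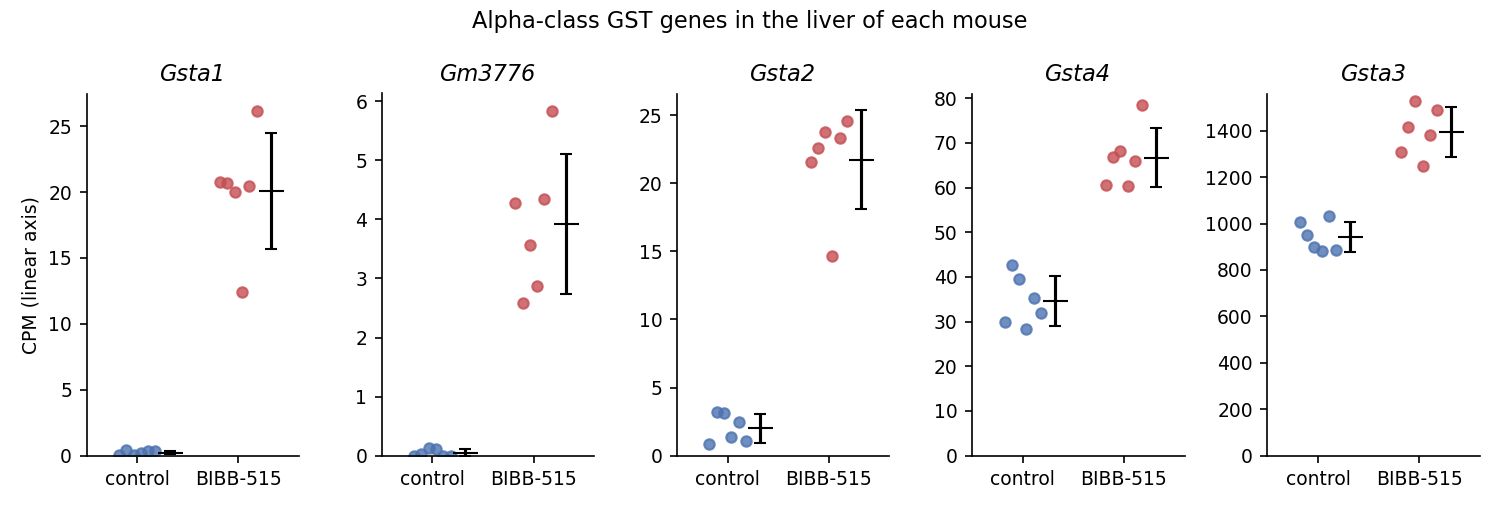
CPM of each member (vertical, linear axes that differ between panels) in each mouse by diet (horizontal), with 1 point per mouse and the mean and SD of 6 mice beside the points. Each panel shows the BIBB-515 mice above all control mice, with Gsta1 and Gm3776 near 0 on the control diet and Gsta3 high on both diets.

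Gsta1 was nearly silent on the control diet. Its reads numbered 2, 11, 2, 5, 7 and 8 in control mice 1 to 6, and 655, 667, 560, 307, 556 and 641 in BIBB-515 mice 6 to 11. After normalization this was 0.236 ± 0.135 CPM on the control diet and 20.1 ± 4.4 CPM with BIBB-515 (SD, n = 6 each). The log2 fold change was 6.38 (SE 0.26, adjusted p = 1.04e-09), an 83.0-fold rise. The BIBB-515 mice lay close together apart from mouse 9, which was lowest at 12.4 CPM, and mouse 11, which was highest at 26.2 CPM.

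Gm3776 followed the same pattern at lower counts. The control mice had 0, 1, 3, 3, 0 and 0 reads, and the BIBB-515 mice had 135, 83, 100, 71, 118 and 143. The means were 0.0480 ± 0.0621 and 3.91 ± 1.18 CPM (SD, n = 6 each). The log2 fold change was 6.22 (SE 0.43, adjusted p = 4.28e-07). The control level rests on 7 reads in all, so the size of the rise is loosely bounded by depth. The ratio of summed reads was 81.4, with an exact 95% interval from counting error alone of 39.3 to 203.

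Gsta2 was low but measurable in every control mouse. Its reads numbered 22, 88, 72, 34, 53 and 26 on the control diet and 680, 728, 666, 362, 633 and 602 with BIBB-515. The means were 2.01 ± 1.06 and 21.7 ± 3.6 CPM (SD, n = 6 each). Control mice spread from 0.851 to 3.18 CPM, widely for their mean, while 5 of the 6 BIBB-515 mice fell between 21.6 and 24.6 CPM and mouse 9 stood below them at 14.7 CPM. The log2 fold change was 3.44 (SE 0.26, adjusted p = 1.12e-06), a 10.8-fold rise.

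Gsta4, the 4-hydroxynonenal enzyme, rose 1.93-fold. Its lowest, median and highest CPM were 28.2, 33.6 and 42.7 in the control mice and 60.4, 66.3 and 78.6 in the BIBB-515 mice. The log2 fold change was 0.95 (SE 0.10, adjusted p = 3.39e-05). The groups were separated by a gap wider than the spread of the control mice.

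Gsta3, the abundant basal form, had the smallest fold change of the 5 and the largest gain in reads. Its lowest, median and highest CPM were 882, 925 and 1032 in the control mice and 1246, 1398 and 1528 in the BIBB-515 mice. The log2 fold change was 0.57 (SE 0.07, adjusted p = 0.000216), a 1.48-fold rise. No BIBB-515 mouse came near the control range.

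Gsta3 held most of the counted reads of the class on both diets. The summed CPM of the 5 members was 979 ± 65 on the control diet and 1507 ± 118 with BIBB-515 (SD, n = 6 each), 1.54-fold higher, and the share of all counted reads was 0.0960% ± 0.0053 and 0.153% ± 0.011. Gsta3 supplied 85.7% of the difference between the mean sums, Gsta4 6.09%, Gsta1 3.76%, Gsta2 3.74% and Gm3776 0.733%. Gsta1, Gsta2 and Gm3776 together made up 0.234% ± 0.112 of the class's reads on the control diet and 3.02% ± 0.44 with BIBB-515. Reads on sequence that the copies share are missing from these sums and shares, so the part of the 3 copies is a minimum.

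A cruder scale allows for the missing reads by dividing the CPM of a gene by the number of its words that no other family member holds, for words of 50, 75 or 100 bases, since the read length is not given in the sources used here. Exon 6 of Gsta1 held 2405 reads in the BIBB-515 mice, though every 50-base word over it is shared. Placing those reads took more than 50 bases, so values at that length likely give the copies too much weight. At every word length the scale also takes reads to be spread evenly along a transcript, which they were not. In the BIBB-515 mice Gsta2 had 108 reads on exon 1, of 57 bases, and 1820 on exon 7, of 230 bases. How far this uneven spread shifts the parts given below was not tested. With words of 50 bases Gsta3 supplied 58.1% of the difference between the diets in the summed level, Gsta1 25.4%, Gsta2 7.14%, Gm3776 5.67% and Gsta4 3.76%. With words of 100 bases Gsta3 supplied 70.4% and Gsta1 17.4%. The 3 copies then made up 0.873% ± 0.370 of the summed level on the control diet and 17.2% ± 2.5 with BIBB-515 at 50 bases, and 0.485% ± 0.205 and 10.2% ± 1.5 at 100 bases (SD, n = 6 each). Gsta3 had the largest part on every scale, and Gsta1 came next on the scales that allow for shared sequence. In RNA from whole liver, a change in the number of cells that express a gene and a change of its RNA per cell cannot be told apart.

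Per length, as RPKM, which divides the CPM by the length of the exons, the level of Gsta3 was 585 ± 40 on the control diet and 866 ± 66 with BIBB-515 (SD, n = 6). Gsta4 followed with RPKM of 36.1 ± 5.9 and 69.7 ± 6.9. These 2 genes share no 50-base word with any other annotated transcript, so their levels can be set beside each other. On the same RPKM scale Gsta2 stood at 2.35 ± 1.24 and 25.4 ± 4.2, Gsta1 at 0.274 ± 0.156 and 23.3 ± 5.1, and Gm3776 at 0.0549 ± 0.0710 and 4.48 ± 1.36. The order on the control diet was thus Gsta3, Gsta4, Gsta2, Gsta1 and Gm3776, and the ranges of Gsta1 and Gsta2 overlapped with BIBB-515. The tables leave out reads that map to several places, so the levels of the 3 copies are minimum values. Per 1000 unshared words of 50 bases, the CPM of Gsta1 with BIBB-515 was 236 ± 52, against 72.5 ± 12.1 for Gsta2 and 71.9 ± 7.1 for Gsta4, and with words of 100 bases these values were 142 ± 31, 43.4 ± 7.2 and 76.0 ± 7.5 (SD, n = 6 each). On this scale every BIBB-515 mouse had Gsta1 above the range of Gsta2 at each word length and above that of Gsta4 at 50 and 75 bases, so the order with BIBB-515 depends on how shared sequence is treated.

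The changes differed in size between members, as the ratio of their reads within each mouse showed. Of the 10 pairs, 9 had a log2 ratio that differed between the diets (two-sided exact permutation test over 924 labelings of the mice, adjusted over the pairs). Against Gsta3, Gsta1 gained 5.91 on the log2 scale, Gm3776 5.77 and Gsta2 3.02 (adjusted p = 0.00271 each in exact tests, from the smallest p of 0.00216 that 6 mice against 6 allow). With a pseudocount of 2 the gain of Gm3776 against Gsta3 was 4.45, that against Gsta4 went from 5.38 to 4.06, and the loss of Gsta2 against Gm3776 went from -2.75 to -1.48, so the sizes for Gm3776 rest on its few control reads. Against Gsta2, Gsta1 gained 2.89 (adjusted p = 0.00271, exact test), and the pair ended with almost the same reads in the BIBB-515 mice, at a mean log2 ratio of -0.13 ± 0.13 (SD, n = 6). Gsta3 lost 0.39 against Gsta4 (adjusted p = 0.00481, exact test).

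The pair without a detectable difference was Gsta1 and Gm3776. Its log2 ratio averaged 2.24 ± 1.82 on the control diet and 2.37 ± 0.33 with BIBB-515 (SD, n = 6), a difference of 0.14 (adjusted p = 0.874, exact permutation test). With so few control reads this test says little about whether the 2 genes rose alike. With a pseudocount of 2 in place of 0.5 the difference was 1.06 (adjusted p = 0.0498, exact test). It changed sign without control mouse 3 (-0.41) or control mouse 4 (-0.18).

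The reads of the copies were counted on part of their exons. Of the 50-base words of the Gsta1 transcript, 89.7% also occur in another annotated transcript, against 92.5% for Gm3776, 64.2% for Gsta2 and 48.0% for Gm10639. In the exon tables Gsta1 had no read on exons 3, 4 and 5 in any of the 12 mice, and every word over these exons is shared. Exon 6 of Gsta1 is shared in full as well, yet it held 24 reads over the 6 control mice and 2405 over the 6 BIBB-515 mice, so full sharing of words alone does not mark the exons without reads. Exons 6 and 7 held 98.5% of the exon reads of Gsta1 and also 98.5% of those of Gm3776. A read can be counted on 2 exons, so exon reads do not sum to gene reads.

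On exon 7 Gsta1 had 2 to 11 reads in the control mice and 304 to 660 in the BIBB-515 mice, and Gm3776 had 0 to 3 and 71 to 143. Exon 1, in which 46.7% of the words over Gsta1 are shared, had no read in the 6 control mice and 3 to 11 in each BIBB-515 mouse. The rise of Gsta1 was thus also seen at its 5′ end, though on few reads. Fitted on exon 1 alone, the log2 fold change of Gsta1 was 5.84 (adjusted p = 0.00186), a value that depends on the prior count because the control reads are 0. Gsta2, fitted on exon 7 alone, had a log2 fold change of 3.51 (adjusted p = 7.66e-07). Gm3776 has no exon with under 50% of shared words and could not be fitted this way.

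**Figure D2:**
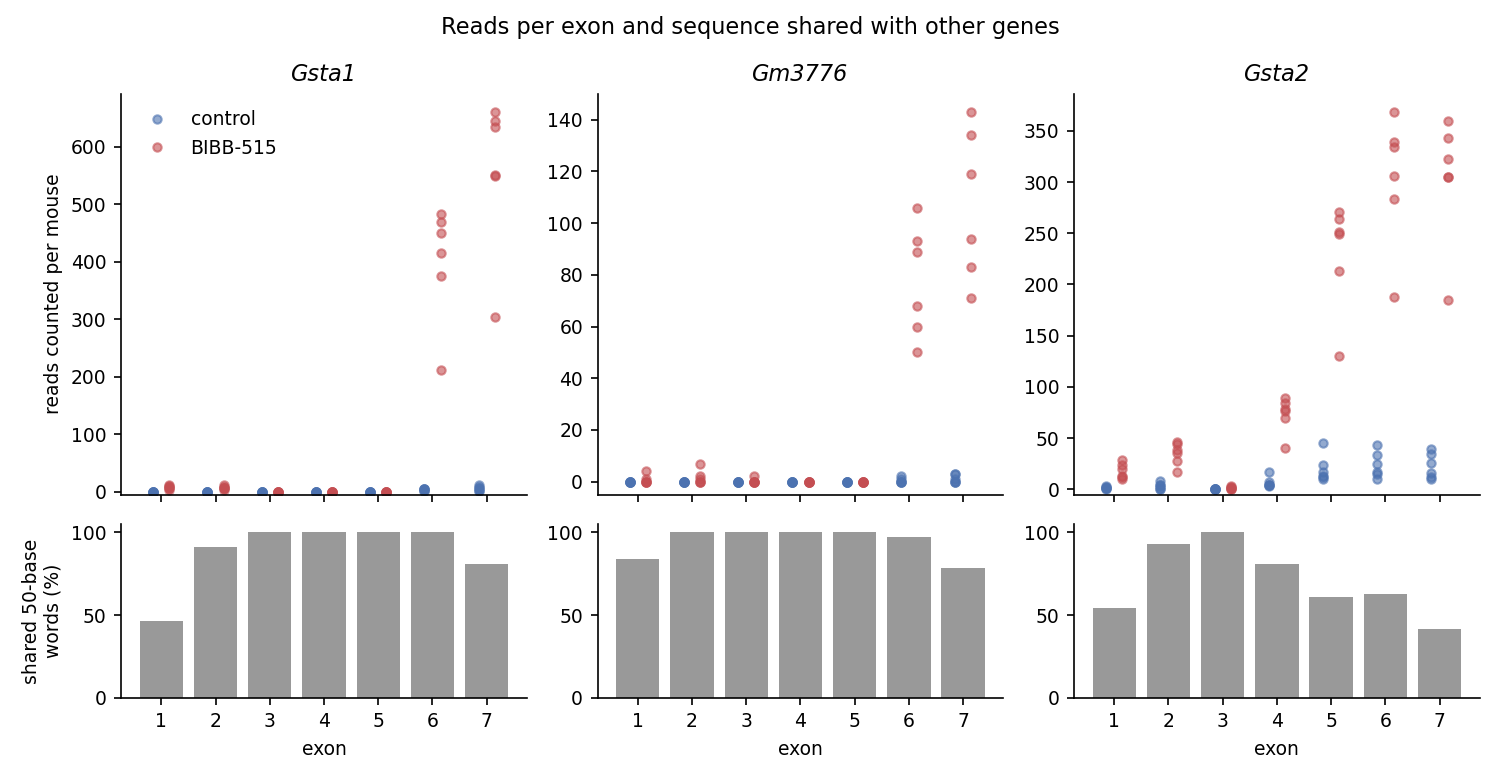
Upper panels show reads counted on each exon (vertical, linear) of Gsta1, Gm3776 and Gsta2 by exon number (horizontal), with 1 point per mouse in blue for the control diet and red for BIBB-515. Lower panels show the percent of 50-base words over each exon that occur in another gene's transcript, which is 100% over exons 3, 4 and 5 of Gsta1, where no read was counted, and also over its exon 6, where reads were counted.

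The tables made from primary alignments gave nearly the same reads for the members. In any mouse the 2 tables differed by at most 2 reads for Gsta1 and Gm3776 and by 0 for Gsta2, Gsta3 and Gsta4, although their totals were 3.21% to 3.91% larger. The primary tables thus did not bring back reads on the shared exons.

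Gm10639 had no read in any control mouse and 15, 10, 14, 0, 11 and 9 reads in BIBB-515 mice 6 to 11. It did not reach the filter and was not tested. Its summed reads were at least 17.2-fold higher with BIBB-515 than a floor of 3 reads over the whole control group. The BIBB-515 mouse without a read, mouse 9, was also the lowest mouse for 4 of the 5 members in CPM.

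Mouse 9 was low and mouse 11 high for most of the class. In CPM mouse 9 was the lowest BIBB-515 mouse for Gsta1, Gsta2, Gsta3 and Gsta4, and mouse 7 was the lowest for Gm3776. Mouse 11 was the highest for the same number of members, with Gsta3 as the exception. Among the 896 genes that rose with BIBB-515, mouse 9 was the lowest of its group for 24.3%, the largest share among the 6 mice. Mouse 7 followed closely with 21.7% and mouse 6 with 21.0%, and the other mice had 9.49% to 13.5%. Without mouse 9 the log2 fold changes were 6.48 for Gsta1, 6.30 for Gm3776, 3.53 for Gsta2, 0.98 for Gsta4 and 0.60 for Gsta3, each with an adjusted p under 0.05.

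The exons of Gsta4 did not all rise alike. Exons 2 to 7 were each higher with BIBB-515, by 0.92 to 1.08 on the log2 scale of CPM (p = 0.00216 for each, two-sided exact permutation test). Exon 1, which holds the 5′ end, had 13 to 26 reads in the control mice and 13 to 29 in the BIBB-515 mice, a difference of 0.15 (SE 0.21, p = 0.468, exact permutation test). Relative to the other exons of the gene, exon 1 had 1.32% of their reads on the control diet and 0.771% with BIBB-515. The log2 difference of this relative use was -0.81, without overlap between the groups (exact permutation test, p = 0.00216, adjusted p = 0.0411 over 19 exons).

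The 19 exons were those of Gsta2, Gsta3 and Gsta4 with at least 10 reads in every mouse, and the other 18 had adjusted p of 0.72 or more and differences between -0.24 and 0.14. Both GENCODE transcripts of Gsta4 contain the sequence of exon 1, and 1 of them starts 9.19 kb upstream of the gene as the tables give it. Exon 4 of Gsta3, present in 1 of its 3 transcripts in the tables, rose by 0.34 where the others rose by 0.56 to 0.65, but its relative use did not pass the test (difference -0.24, adjusted p = 0.72, exact permutation test).

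**Figure D3:**
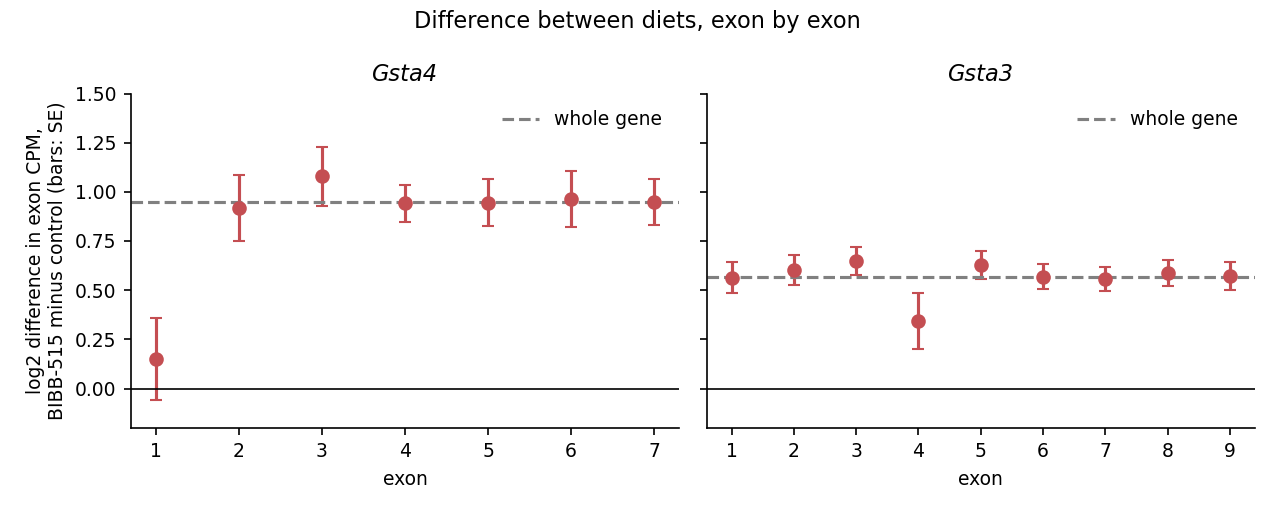
Mean log2 difference in CPM between the diets (vertical) for each exon (horizontal) of Gsta4 and Gsta3, with SE bars over 6 mice per diet and a dashed line at the log2 fold change of the whole gene. Exon 1 of Gsta4 lies near 0 at 0.15, while its other exons lie between 0.92 and 1.08.

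The rise was shared by other classes of the enzyme. Of 22 other glutathione S-transferase and related genes listed, 17 were tested. Of these, 11 rose and none fell, a share of 64.7% beside the 7.18% of all genes that rose. The median log2 fold change of the 17 was 0.54. Gstm3, a mu-class enzyme, rose from 59.4 ± 28.4 to 3128 ± 503 CPM (SD, n = 6 each, log2 fold change 5.72, SE 0.29, adjusted p = 1.48e-08), next to Gm3776 among the glutathione S-transferases tested. Gstm1, the main mu-class enzyme of mouse liver, rose with a log2 fold change of 2.21 (SE 0.17, adjusted p = 1.00e-06). Gstm4 and the theta-class gene Gstt3 each rose by 1.19 on that scale. Gstz1, the zeta-class enzyme of tyrosine breakdown, had -0.04 (adjusted p = 0.803), and Gstk1, the mitochondrial kappa-class form, also had -0.04 (adjusted p = 0.814).

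**Figure D4:**
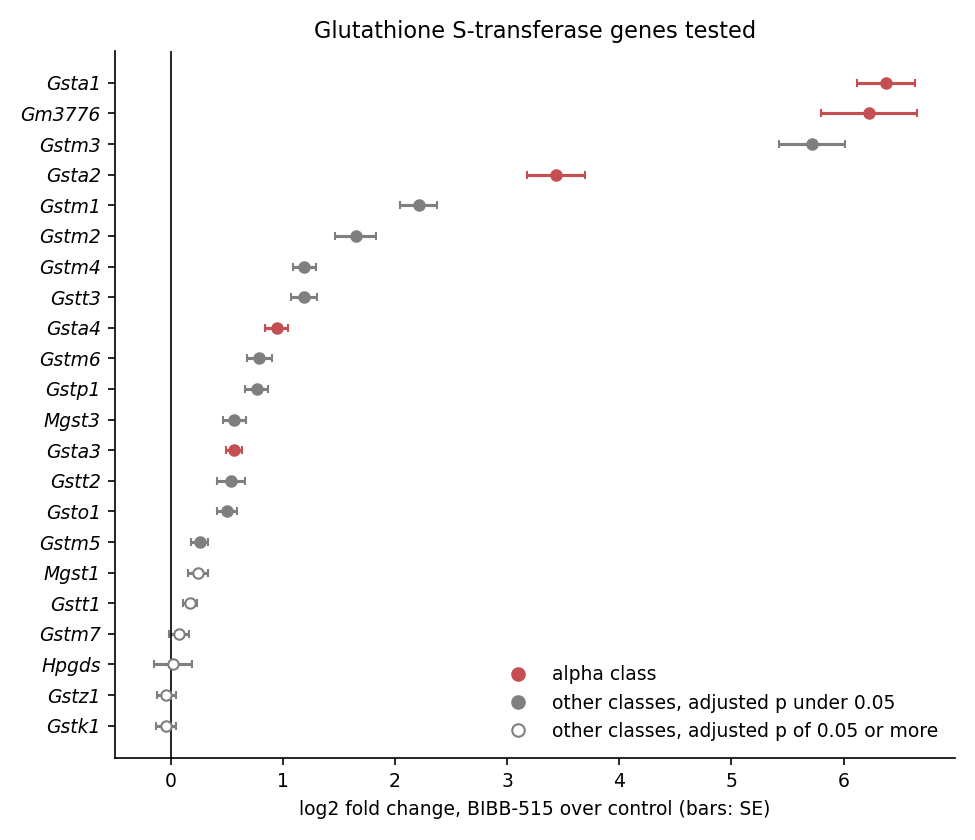
Log2 fold change with SE (horizontal) of the 22 tested glutathione S-transferase genes (vertical, sorted), with the alpha class in red and other classes in grey, filled where the adjusted p was under 0.05. Gsta1 and Gm3776 stand at the top with Gstm3, and Gsta3 and Gsta4 lie among the called genes of other classes.

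Genes that make, recycle and use glutathione moved in both directions. Of 21 tested, 5 rose and 1 fell, a called share of 28.6% beside 13.7% of all genes, and the median log2 fold change was 0.07. Gsr, which regenerates glutathione, rose by 0.83 (SE 0.07, adjusted p = 1.95e-06), and Gpx4, the peroxidase of membrane lipid hydroperoxides, rose by 0.78 (SE 0.08, adjusted p = 1.96e-05). Gpx7, a peroxidase of the endoplasmic reticulum, rose by 0.66, and Chac2, a glutathione-degrading enzyme, fell by 0.53. The genes of glutathione synthesis did not pass the test. Gclc, the catalytic subunit of the limiting enzyme, had a log2 fold change of 0.18 (adjusted p = 0.33), its partner Gclm 0.22 (adjusted p = 0.168) and Gss 0.05 (adjusted p = 0.833).

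Among 24 tested targets of NRF2, 11 rose and none fell, a share of 45.8% beside the 7.18% of all genes that rose, with a median log2 fold change of 0.33. This list shares Gsr, Gclc and Gclm with the glutathione list. Abcc3, an exporter of conjugates, rose by 1.70 (SE 0.18, adjusted p = 3.07e-05), the epoxide hydrolase gene Ephx1 by 1.61 and the ferritin gene Fth1 by 0.69. Among the most used NRF2 targets, Nqo1 rose from 9.52 to 15.9 CPM (log2 fold change 0.74, adjusted p = 0.00636). Srxn1 rose from 49.0 to 76.9 CPM (log2 fold change 0.65, adjusted p = 0.000486). Hmox1 stood at 22.2 and 23.3 CPM (adjusted p = 0.795) and Txnrd1 at 111 and 115 CPM (adjusted p = 0.643).

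Marker genes of foreign-compound receptors rose in 6 of 7 cases, beside the 7.18% of all genes that rose. Their median log2 fold change was 0.93. Cyp3a11, the usual marker of PXR, rose by 3.24 (SE 0.12, adjusted p = 2.31e-10) and Cyp2b10, the usual marker of CAR, by 3.98 (SE 0.47, adjusted p = 7.66e-05). Cyp2c55 rose by 5.98 (SE 0.25, adjusted p = 1.59e-09). Of the aryl hydrocarbon receptor's markers, Cyp1a2 rose by 0.73 (adjusted p = 0.000324), and Cyp1a1 stood at 0.879 CPM on the control diet and 1.14 CPM with BIBB-515 (adjusted p = 0.441).

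The regulators themselves moved little. Among all genes tested 7.18% rose and 13.7% were called in either direction. Of 15 regulators tested, 2 rose and none fell, a share of 13.3%. These were Mafg, a small partner of NRF2, at 0.27 (SE 0.06, adjusted p = 0.0129), and Cebpb, a liver transcription factor, at 0.60 (SE 0.15, adjusted p = 0.018). With 1 surrogate variable as a covariate 4 were called. Log2 fold changes were -0.03 for Nfe2l2, which encodes NRF2, 0.02 for Nr1i3, which encodes CAR, 0.29 for Nr1i2, which encodes PXR, and 0.12 for Ahr, with adjusted p of 0.874, 0.929, 0.0658 and 0.471.

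No tested neighbour of the chromosome 9 members rose with them. Within 500 kb of them lie 17 further genes, Gm10639 included, of which 8 were tested, none rose and 2 fell, beside the 6.48% of all genes that fell. With no filter on low counts Gm10639 was also called (adjusted p = 0.00428), as the only riser among these neighbours. Elovl5, an elongase of polyunsaturated fatty acids, fell by 0.65 on the log2 scale (SE 0.14, adjusted p = 0.00838), and Slc17a5, a lysosomal sialic acid transporter, fell by 0.29 (SE 0.08, adjusted p = 0.0249). Only 1 of the 2 falls was called without control mouse 1 or without BIBB-515 mouse 6, 7 or 11. The closest tested genes at lower coordinates, C920006O11Rik and Ick, had log2 fold changes of 0.16 (adjusted p = 0.292) and 0.04 (adjusted p = 0.746).

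The genes whose profile over the 12 mice was nearest to each member, by the mean absolute difference in log2 CPM from the control mean, were drawn from 11169 tested genes. Nearest to Gsta1 was Cyp2c55, a cytochrome P450, at 0.42, followed by Gstm3 at 0.60 and Gm3776 at 0.98. Nearest to Gm3776 were Gstm3 at 0.53, Cyp2c55 at 0.72 and Cyp2b10 at 0.77. Gsta2 lay nearest to the carboxylesterase gene Ces2a at 0.31, the aldo-keto reductase gene Akr1b7 at 0.34 and Gadd45b at 0.47. Gsta4 lay nearest to Ldhd at 0.12, Cryl1 at 0.13 and Ccl9 at 0.13, and Gsta3 to Copz2 at 0.07, Aldh7a1 at 0.08 and Sh3bp2 at 0.08. Gsta1 and Gm3776 shared Cyp2c55 and Gstm3, and the other members had different nearest genes. By its construction this distance depends on the size of the change with diet, so the nearest genes largely restate the members' fold changes. Gsta2, with a log2 fold change of 3.44, lay nearest to genes with 3.53, 3.26 and 3.21. The log2 CPM held a prior count of 2, which shrinks the change of Gm3776 with its few control reads.

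The tissue label was checked with marker lists. For comparison, 6.48% of all genes tested were called lower with BIBB-515 and 13.7% in either direction. The 6 hepatocyte markers summed to between 141394 and 158409 CPM in the control mice and between 107313 and 123004 CPM in the BIBB-515 mice, with 2 of them called lower, among them Alb with a log2 fold change of -0.40. Of the tested markers of Kupffer cells, bile duct cells, endothelial cells and adipocytes, none was called among 17. Of the 6 stellate cell markers 2 fell, and their sum ran from 265 to 364 CPM and from 252 to 312 CPM. Of the 6 intestine markers 1 was tested, Fabp2, which fell by 0.66, and 3 had no read in any mouse. The 6 pancreas markers summed to at most 0.14 CPM and were not tested, with 3 of them at 0 in every mouse. The part of these shifts in the members' rise was not tested.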

How the data were processed

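The authors deposited counts of reads per gene and per exon for each of 12 livers, 6 per diet. The file headers name featureCounts with a UCSC annotation of mm10, with no strand option, and the commands left out multiply mapped reads and reads on more than 1 gene. The submitters' processing notes name STAR 2.5.3a and Subread 1.6.3. The library preparation is not given in the sources used here. Further deposited count tables from primary alignments were an alternative, and the transcript tables were not used. Groups came from the sample titles.

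The filter asked for 1 CPM or more in 2 of 12 mice and kept 12481 of 24062 genes. After TMM scaling, edgeR 4.0.16 (R 4.3.3) fitted a quasi-likelihood model of diet alone, and p-values were adjusted over these genes by the Benjamini-Hochberg method. The fit was tested on simulated data. Ratios between members and relative exon use were compared with two-sided exact permutation tests in scipy 1.17.1, with 0.5 added to each count. The exon tests, and the scale of CPM per unshared word, were chosen after the counts were seen. Alternatives were DESeq2 1.42.0, upper-quartile scaling, limma-voom of limma 3.58.1, edgeR's likelihood ratio test, no filter, at least 1 CPM in at least 6 mice, the primary tables, 1 surrogate variable from sva 3.50.0, exons with under 50% of shared 50-base words, and each mouse left out. Sequences came from GENCODE and RefSeq on GRCm38, and 50-base words were compared over all annotated transcripts.

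The members and lists were chosen with earlier results of these data known. Named genes were the 5 members, Gm10639, up to 4 called genes of each list with the lowest adjusted p, and the 3 nearest profiles of each member. Other genes were named after their values were seen. Libraries of the same diet all differed by more than sampling noise. The labels give no batch and no cage for each mouse. The paper states that several mice were housed per cage and that BIBB-515 was given in the diet. Cage mates may thus have shared a diet, and an effect of cage cannot be told apart from diet here. The p-values set the difference between diets against the spread between mice and treat each mouse as independent.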

Additional observations from a re-analysis of the deposited data

Results flagged for a closer look

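Gsta2 stood out in BIBB-515 mouse 9. Its 14.7 CPM lay apart from the other 5 BIBB-515 mice, the nearest of which had 21.6 CPM, a gap of 0.696 of the group's range, above Dixon's critical value of 0.625 for 6 samples. Of the 50 groups of 6 mice examined, over the members, their sum and the named genes of the lists, this was the 1 beyond that value, where chance alone gives about 2.5. Without mouse 9 the log2 fold change of Gsta2 was 3.53 in place of 3.44 (adjusted p = 1.74e-06 in edgeR's quasi-likelihood test).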

How the results depend on the processing

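The 5 members rose with an adjusted p under 0.05 under all 8 alternatives of scaling, filter, test, table and covariate and with each of the 12 mice left out. The log2 fold change ranged from 6.19 to 6.61 for Gsta1, from 5.97 to 6.74 for Gm3776, from 3.27 to 3.63 for Gsta2, from 0.90 to 1.02 for Gsta4 and from 0.54 to 0.60 for Gsta3. Fitted on its exon with few shared words alone, Gsta1 had 5.84. The count of genes called, 1705, lay between 1199 and 1865 with a mouse left out and between 1489 and 2436 otherwise. The summed CPM of the class was 1.54-fold higher also with DESeq2 size factors and with the primary tables. Per unshared word, a scale added after the data were seen, the sum was 1.79-fold higher at 50 bases, 1.70-fold at 75 and 1.66-fold at 100, by construction through more weight on the copies. The ratio of Gsta1 to Gm3776 changed by 1.06 with a pseudocount of 2 (adjusted p = 0.0498, exact test) and by -0.41 to 0.51 with a mouse left out. The other 9 pair ratios kept their direction and side of the threshold, with Gm3776 against Gsta3 at 4.45, Gm3776 against Gsta4 at 4.06 and Gsta2 against Gm3776 at -1.48 under a pseudocount of 2. With 1 surrogate variable, 4 regulators were called in place of 2, and 1 or 2 neighbours were called with a mouse left out and 3 with no filter. The cause was not tested. The relative use of Gsta4 exon 1 ranged from -0.88 to -0.73 with a mouse left out, where 5 against 6 mice allow no adjusted p below 0.0823, and was -0.77 against exon 2 alone (adjusted p = 0.0411, exact test). Against next exons 2 exons were called, the other being exon 5 of Gsta3 at 0.07. Fitting few-shared exons could not be done for Gm3776. The labels pair no control mouse with a BIBB-515 mouse, so no paired analysis was run. Depth limits the control levels of Gsta1, Gm3776 and Gm10639, at 35, 7 and 0 reads in all.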
